A study of Mus musculus with 12 samples.

Results

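The 41 genes described here are mouse imprinted genes, taken by symbol from a deposited table of read counts for 31641 genes, and each of the 41 symbols was in the table. They were followed in 4 lines of mouse embryonic stem cells, which derive from the blastocyst and can form every tissue of the body. Lines Mut-1 and Mut-2 carry the genotype given as Tin2 S341X, a change in the gene of the telomere-binding shelterin protein TIN2 (table symbol Tinf2), and lines WT-1 and WT-2 are wild type. Cells of each line were of the C57BL/6 strain and were kept on a feeder layer of mouse embryonic fibroblasts in serum medium with LIF, with no other treatment given. Total RNA was taken from cells grown on these feeders, and no step to remove the feeders is given. Each line gave 3 libraries that the study calls technical replicates, 12 in all, so a genotype is represented by 2 lines. How the lines were derived, and whether each is 1 clone, is not given in the sources used here.

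An imprinted gene is transcribed mainly from the copy inherited from 1 parent, because a differentially methylated region set in the egg or the sperm marks the copies unequally. Imprinted genes lie in clusters, called domains here, in which 1 control region acts on several genes and on long non-coding RNAs. Many of them act on growth of the fetus and placenta: paternally expressed genes such as Igf2 tend to promote growth and maternally expressed genes such as Igf2r, Grb10, Phlda2 and Cdkn1c tend to restrain it. Imprints are known to be gained or lost in cultured embryonic stem cells, and lines and subclones can differ in them. The cells were of an inbred strain and the values are gene totals, so the parental copies were not told apart and the data give the level of each gene, not its imprint.

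Promoter sequences of the genes on which the results turn are shown first, to place the pair Peg3 and Usp29, which share 1 control region, beside Magel2 and its neighbour Ndn, and to show Meg3, the only 1 of these windows that holds the hexamer TGCCGC, the core of the motif bound by the imprint-protecting factor ZFP57. The sequences are from RefSeq on GRCm38.p6, read 5′ to 3′ on the strand given, with each CG pair in capitals. The first is the interval between the starts of Peg3 and Usp29, read on the Peg3 strand at chr7:6730420-6730582 (minus). The others are the 250 bases before the RefSeq start of Magel2 at chr7:62376729-62376978 (plus), of Ndn at chr7:62348027-62348276 (plus) and of Meg3 at chr12:109540746-109540995 (plus). In GENCODE M21, used here for gene positions, Ndn runs from 62346569 to 62350262, so the Ndn window lies within that span.
Peg3-Usp29: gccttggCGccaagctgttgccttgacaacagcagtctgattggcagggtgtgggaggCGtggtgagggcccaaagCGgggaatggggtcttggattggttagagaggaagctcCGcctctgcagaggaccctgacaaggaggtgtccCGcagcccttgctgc
Magel2: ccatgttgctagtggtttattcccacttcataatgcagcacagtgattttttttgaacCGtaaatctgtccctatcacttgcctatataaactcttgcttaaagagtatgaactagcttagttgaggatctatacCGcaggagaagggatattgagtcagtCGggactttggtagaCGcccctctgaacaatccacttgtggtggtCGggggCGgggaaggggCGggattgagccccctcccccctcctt
Ndn: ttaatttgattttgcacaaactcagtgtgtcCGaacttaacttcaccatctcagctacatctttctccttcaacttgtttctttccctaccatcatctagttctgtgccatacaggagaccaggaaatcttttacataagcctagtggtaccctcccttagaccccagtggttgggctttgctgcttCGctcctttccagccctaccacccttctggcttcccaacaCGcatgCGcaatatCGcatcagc
Meg3: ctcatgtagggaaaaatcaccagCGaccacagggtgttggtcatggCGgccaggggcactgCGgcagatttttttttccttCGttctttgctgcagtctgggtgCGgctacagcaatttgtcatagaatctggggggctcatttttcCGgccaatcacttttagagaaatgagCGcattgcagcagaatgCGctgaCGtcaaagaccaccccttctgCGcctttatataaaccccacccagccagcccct
The Peg3-Usp29 interval holds 5 CG pairs in 163 bases, and the windows of Magel2, Ndn and Meg3 hold 7, 5 and 10. Of the 41 genes, 34 had a RefSeq promoter entry, with 50 start sites in all. Their windows of 250 bases held a median of 10.5 CG pairs, against 6 over 32851 windows of all genes. TGCCGC was searched on both strands and was in 7 of the 50 windows (14%), against 8.68% of the windows of all genes. Counted in windows of 300 bases, it was in 24% of theirs and 11.6% of all; among windows with at least 20 CG pairs it was in 25% (4 of 16) of theirs and 27.8% of all. A match is only a description of the letters.

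Libraries held 14766477 to 17891894 counts. Tinf2, the gene of the labelled change, had 19.7 to 30.1 CPM (counts normalised to the library size) in mutant and 57.7 to 69.2 CPM in wild-type libraries. The 12 markers of pluripotency were all expressed in each group, with a summed level of 5642 to 7446 CPM in mutant and 6429 to 7299 CPM in wild-type libraries. WT-1 replicates 1 and 2 stood apart in being nearly alike: the chi-square of their counts was 1.66 per degree of freedom, against 12 to 42.5 for the other pairs of libraries within a line, so WT-1 replicate 3 often differs from both. Whether replicates 1 and 2 are 1 library sequenced again is not given in the sources used here. All 29 fibroblast markers in the table were detected, and they took 0.592% to 1.42% of the counts in mutant and 0.553% to 0.775% in wild-type libraries. The 3 highest shares were 1.42% (1.41% to 1.42%) in Mut-1 replicate 1, 1.34% (1.33% to 1.34%) in Mut-2 replicate 2 and 1.23% (1.22% to 1.23%) in Mut-2 replicate 1, with 95% Wilson intervals that cover counting error only. In these bulk cultures more feeder cells and more RNA per feeder cell cannot be told apart. Leaving these 3 libraries out, as is done below, leaves Mut-2 with replicate 3 alone. Values and calls without them therefore rest on 1 library of that line.

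Levels of the 41 genes spanned several orders of magnitude. Per kilobase of exon, the mean over the 12 libraries was highest for Cd81 at 109.6 CPM per kb, then Impact at 27.4, Mcts2 at 24.6, Igf2r at 18.2, Tssc4 at 17.9 and Phlda2 at 15.4 CPM per kb. The lowest were Airn at 0.190, Zim1 at 0.162, Kcnq1ot1 at 0.0635 and Rasgrf1 at 0.0210 CPM per kb. Rasgrf1, an exchange factor for Ras in neurons, had 17 counts over the 6 mutant and 29 over the 6 wild-type libraries and was the 1 gene that did not pass the filter on low counts of the 12-library fit. All 41 passed the filter of the fit on line totals. Airn, Zim1, Asb4 and Nap1l5 also rest on few reads, with a highest library value of 1.20, 2.30, 1.24 and 2.17 CPM.

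None of the 41 imprinted genes passed the genotype test, in which the summed counts of the 2 mutant lines were compared with those of the 2 wild-type lines at an adjusted p under 0.05 (edgeR, Benjamini-Hochberg over 18749 genes; 0.0% of all genes passed). Tinf2, whose libraries do not overlap between the genotypes, did not pass it either (log2 fold change -1.30, adjusted p = 0.0652). At an unadjusted p under 0.05 there were 9 of the 41 imprinted genes, where 13.1% of all genes were under it. The 7 higher in the mutant lines were Magel2, Grb10, Igf2, Dcn, Igf2r, Ndn and Meg3 (9.17% of all genes were under 0.05 and higher), and the 2 lower were Ascl2 and Peg3 (3.88% of all genes). The log2 fold change was above 0 for 28 of 41, against 49.8% of all genes, with a median of 0.14, against -0.0016 over all genes. Of the 19 maternally expressed genes 14 had a value above 0 (median 0.18), and of the 20 paternally expressed genes 12 (median 0.089). Genes were assigned to a parental side from textbook knowledge; Gnas and Inpp5f have isoforms of both kinds. Over the 40 genes compared library by library, 1 (Magel2) had each mutant library above each wild-type library, where 1.41% of all genes did, and 0 had each below, where 0.732% did.

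**Figure D1:**
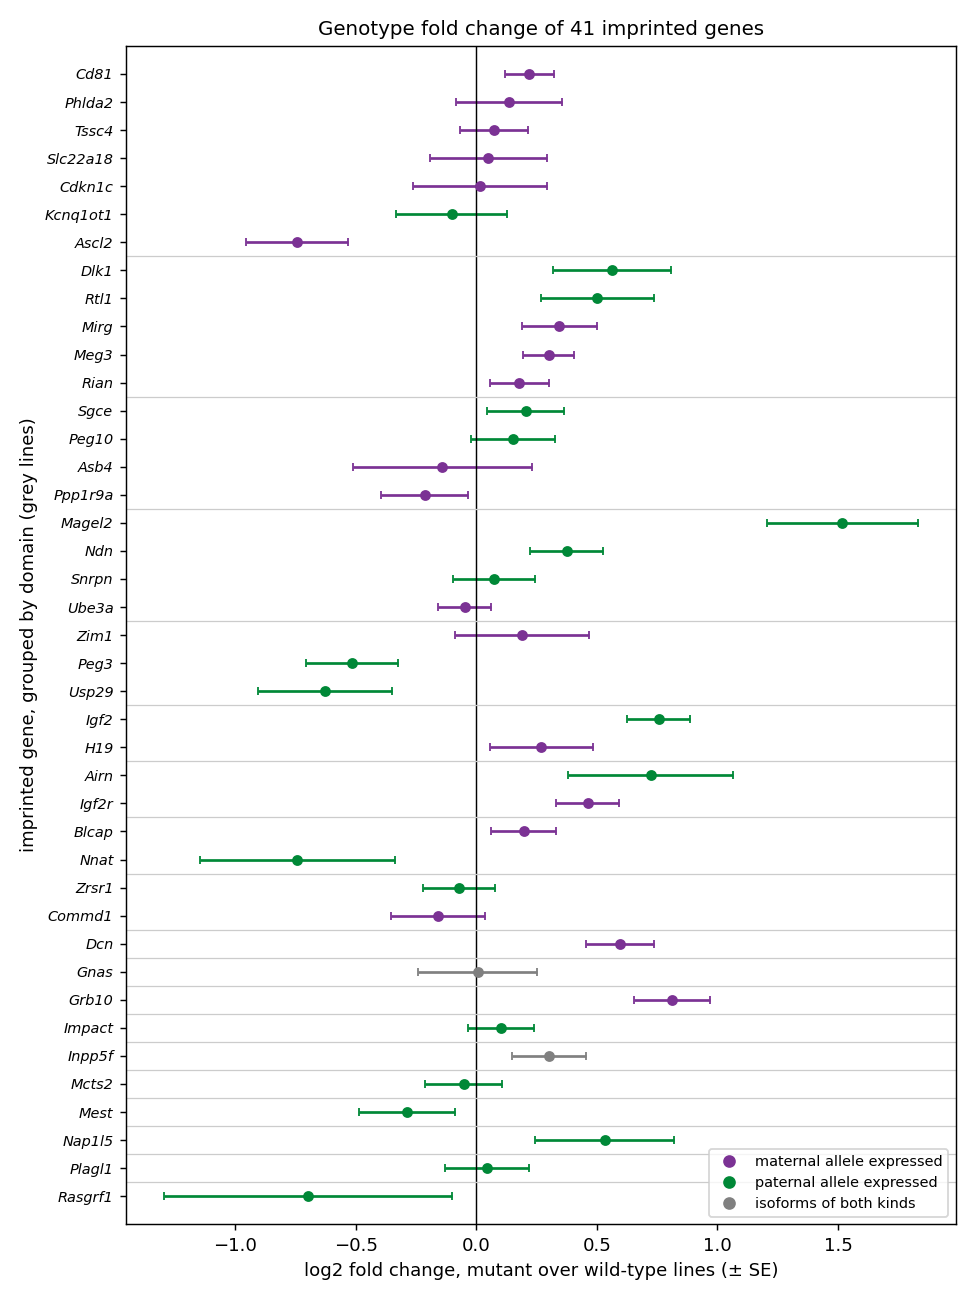
Log2 fold change of mutant over wild-type lines (x axis, with its SE) for the 41 imprinted genes (y axis), grouped by domain between grey lines and coloured by the allele that is expressed. Magel2 lies farthest from 0 at 1.52, the 5 genes of the Dlk1-Meg3 domain lie between 0.18 and 0.56, and Usp29, Peg3, Nnat and Ascl2 lie below 0; none passed the adjusted test.

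In the Peg3 domain on chromosome 7, Peg3 was the 1 of these genes, of 40 tested, that passed the test for any difference among the 4 lines (adjusted p = 0.0271; 1.22% of all genes passed). Peg3 (chr7:6703892-6730431, minus strand) encodes a zinc-finger protein expressed from the paternal copy. It had 58.6, 78.8 and 57.2 CPM across Mut-1 and 78.9, 85.0 and 106 CPM across Mut-2, against 92.5, 96.2 and 90.9 CPM across WT-1 and 129, 117 and 128 CPM across WT-2. Every WT-2 library lay above every library of the other lines, and the 3 Mut-1 libraries were the lowest of the 12, by a narrow margin over Mut-2, but 1 Mut-2 library reached above those of WT-1, so the genotypes overlap. By line totals it averaged 76.5 ± 18.0 CPM in mutant lines and 109 ± 21.9 CPM in wild-type lines (SD, n = 2 lines each), for a log2 fold change of -0.51 ± 0.19, where the error is the SE of the fit (adjusted p = 0.318).

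The steps between lines of 1 genotype were about as large as those between genotypes for Peg3. The log2 fold change was -0.52 ± 0.14 for Mut-1 over WT-1 and -0.48 ± 0.14 for Mut-2 over WT-2 (adjusted p = 0.218 and 0.129). It was 0.42 ± 0.14 for WT-2 over WT-1 and 0.47 ± 0.14 for Mut-2 over Mut-1 (adjusted p = 0.531 and 0.433). None of these pairs passed the rule set for them, which asks for an adjusted p under 0.05 and a log2 fold change beyond 1 in either direction. The order of the line totals was WT-2, WT-1, Mut-2 and Mut-1 from high to low, and WT-1 and Mut-2 overlap. The 4-line call for Peg3 ended without any 1 of 8 libraries (Mut-1 replicate 1 or 3, Mut-2 replicate 2, WT-1 replicate 1 or 2, or any WT-2 library, adjusted p = 0.0631 to 0.133). It also ended without the 3 libraries of highest fibroblast share (adjusted p = 0.139), and it held with that share as a covariate (adjusted p = 0.0413).

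Usp29, a ubiquitin-specific protease gene on the opposite strand that starts from the same interval, is also paternally expressed. It had 1.69, 4.00 and 2.86 CPM across Mut-1 and 2.58, 2.32 and 4.08 CPM across Mut-2, against 2.34, 2.96 and 4.65 CPM across WT-1 and 5.91, 3.92 and 6.74 CPM across WT-2. WT-2 was again the highest line and the mutant lines the lowest, with overlap between all lines. The log2 fold change of Usp29 was -0.63 ± 0.28 by genotype (adjusted p = 0.396) and -0.89 ± 0.37 for Mut-2 over WT-2 (adjusted p = 0.281). Zim1, the maternally expressed zinc-finger gene beside Peg3, ranged over 0.310 to 2.30 CPM in mutant and 0.896 to 1.63 CPM in wild-type libraries, with a log2 fold change of 0.19 ± 0.28. Over the 42 other genes within 2 Mb of the domain the median genotype log2 fold change was -0.013.

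In the Snrpn domain, the region deleted in Prader-Willi and Angelman syndromes in humans, the 6 mutant libraries all lay above the 6 wild-type libraries for Magel2. Magel2 (chr7:62377010-62381640, plus strand) is a paternally expressed gene of the MAGE family whose product works with ubiquitin ligases. It had 1.21, 1.24 and 1.55 CPM across Mut-1 and 1.26, 1.69 and 2.28 CPM across Mut-2, against 0.527, 0.414 and 0.728 CPM across WT-1 and 0.241, 0.654 and 0.595 CPM across WT-2. These values rest on 18 to 33 counts per mutant library and 4 to 13 counts per wild-type library. Magel2 averaged 1.52 ± 0.278 CPM in mutant lines and 0.529 ± 0.0486 CPM in wild-type lines (SD, n = 2 lines each), for a log2 fold change of 1.52 ± 0.31, and did not pass (adjusted p = 0.177).

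The difference in Magel2 was 1.25 ± 0.41 for Mut-1 over WT-1 (adjusted p = 0.306) and 1.79 ± 0.41 for Mut-2 over WT-2 (adjusted p = 0.0606). None of the 40 genes tested passed in either pair, where 0.206% and 0.46% of all genes did. With the replicate number as a block, Magel2 passed in Mut-2 over WT-2 (log2 fold change 1.79, adjusted p = 0.0319), and a limma-voom fit of the 12 libraries called it by genotype (adjusted p = 0.0201). That fit takes single libraries as samples, with an estimated correlation within lines of -0.0025, so its p comes close to one from 6 against 6 independent libraries, not 2 lines against 2. The Magel2 difference was as large with the fibroblast share as a covariate (1.64). Without the 3 libraries of highest share it was 1.77, but Mut-2 is then replicate 3 alone, its highest Magel2 library at 2.28 CPM.

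The other genes of the Snrpn domain differed less between the genotypes. Ndn (necdin), a MAGE gene that lies next to Magel2 and is also paternally expressed, had 28.9, 17.2 and 21.1 CPM across Mut-1 and 24.9, 32.9 and 24.9 CPM across Mut-2, against 18.9, 19.8 and 19.2 CPM across WT-1 and 17.1, 21.1 and 19.3 CPM across WT-2. The wild-type libraries were close together and the mutant libraries spread across and above them. The log2 fold change of Ndn was 0.37 ± 0.15 (adjusted p = 0.346), 0.20 without the 3 libraries of highest fibroblast share and 0.13 with that share as a covariate. Snrpn, which encodes a splicing protein, ranged over 11.2 to 21.9 CPM in mutant and 11.6 to 17.5 CPM in wild-type libraries (log2 fold change 0.074 ± 0.17); 34.1% of its exon bases are shared with other annotated genes, and how reads there were counted is not given. Ube3a, a ubiquitin ligase gene that is imprinted in neurons only, was the steadiest of the 40 genes across lines, at 43.0 to 47.7 CPM in mutant and 44.3 to 52.3 CPM in wild-type libraries (log2 fold change -0.047 ± 0.11). Other annotated genes, among them the antisense Snhg14, share 27.3% of the exon bases of Ube3a. The median over 16 neighbours within 2 Mb was 0.11.

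**Figure D2:**
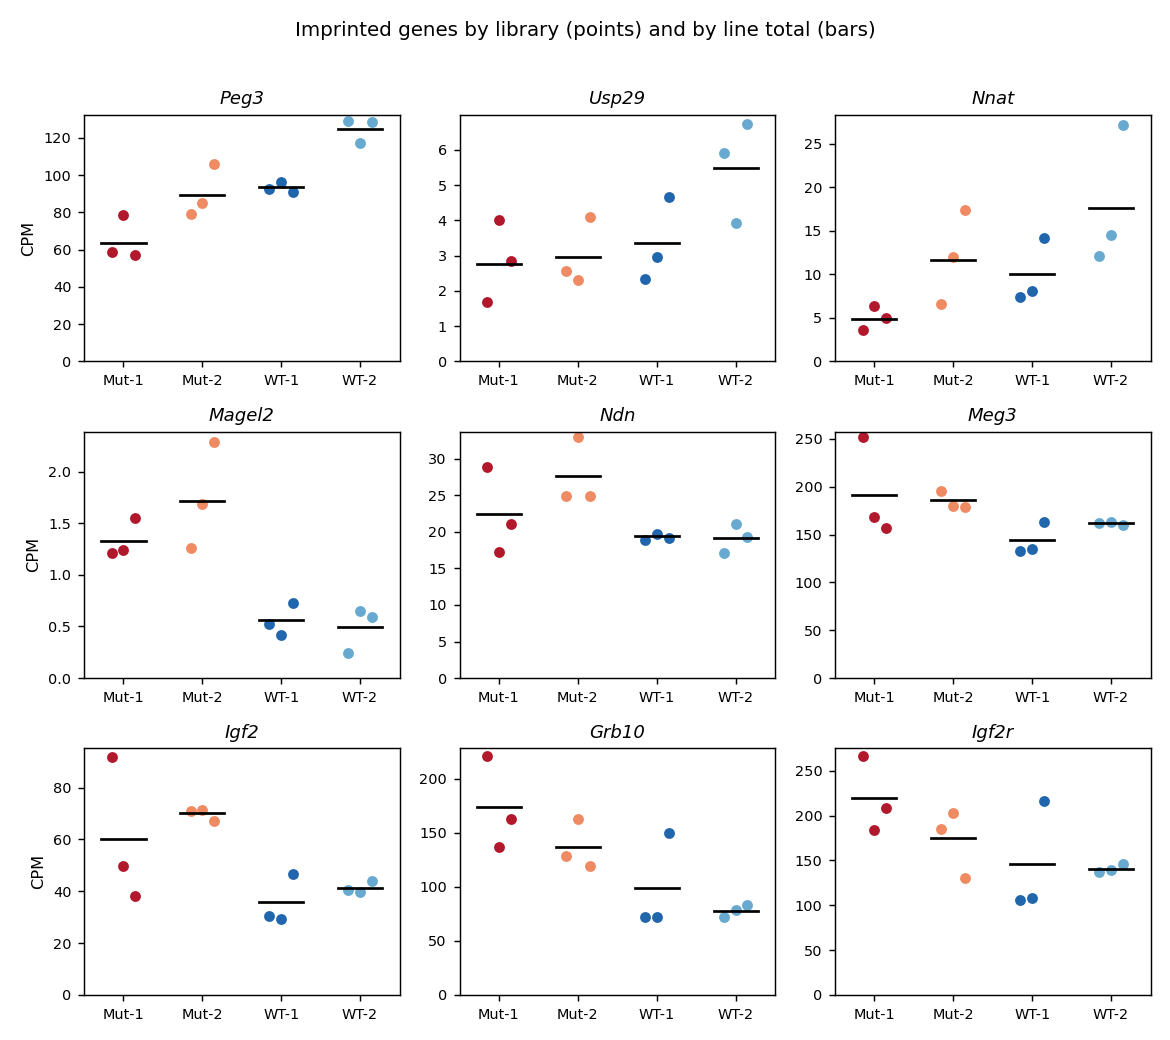
CPM (y axis, from 0) of 9 imprinted genes in each library (points) and as line totals (black bars) for Mut-1, Mut-2, WT-1 and WT-2 (x axis). Magel2 shows no overlap between the genotypes, Peg3 is highest in WT-2 and lowest in Mut-1, and WT-1 replicate 3 lies far above the other WT-1 libraries for Grb10 and Igf2r.

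Igf2, a fetal growth factor expressed from the paternal copy (chr7:142650766-142666816, minus strand), had 92.0, 49.9 and 38.1 CPM across Mut-1 and 71.0, 71.4 and 67.2 CPM across Mut-2, against 30.6, 29.2 and 46.5 CPM across WT-1 and 40.6, 39.6 and 43.8 CPM across WT-2. Mut-2 was above every wild-type library, and of Mut-1 only replicate 3 fell within the wild-type range. Igf2 averaged 65.1 ± 7.16 CPM in mutant lines and 38.6 ± 3.82 CPM in wild-type lines (SD, n = 2 lines each), giving a log2 fold change of 0.76 ± 0.13 (adjusted p = 0.161). In 64.5% of its exon bases other annotated genes overlap it, among them the antisense Igf2os. H19, the maternally expressed non-coding RNA that shares the control region of Igf2, ranged over 7.34 to 35.7 CPM in mutant and 10.7 to 26.0 CPM in wild-type libraries and had no stable direction (0.27 ± 0.21 by genotype, and -0.27 without the 3 libraries of highest fibroblast share).

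Igf2r, the maternally expressed receptor that carries IGF2 to the lysosome for breakdown, had 267, 184 and 208 CPM across Mut-1 and 185, 202 and 131 CPM across Mut-2, against 106, 108 and 216 CPM across WT-1 and 137, 139 and 146 CPM across WT-2. Its log2 fold change was 0.46 ± 0.13 (adjusted p = 0.238). WT-1 replicate 3 lay among the highest libraries, and without it Igf2r passed in Mut-1 over WT-1 (log2 fold change 1.03, adjusted p = 0.0209; 0.61 ± 0.25 with it). In that fit the WT-1 arm is replicates 1 and 2 alone, the nearly alike pair, whose spread may be only technical. Airn, the paternally expressed antisense RNA that silences the paternal copy of Igf2r in differentiated tissue, was near the floor at 0.483 to 1.20 CPM in mutant and 0.293 to 0.672 CPM in wild-type libraries (log2 fold change 0.72 ± 0.34, adjusted p = 0.418). Without a stated strand setting, reads of Airn and of unspliced Igf2r cannot be told apart.

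Grb10, an adaptor protein gene that restrains insulin and IGF signalling and is expressed from the maternal copy in most tissues (chr11:11930508-12038683, minus strand), had 221, 137 and 163 CPM across Mut-1 and 129, 162 and 119 CPM across Mut-2, against 72.0, 71.8 and 149 CPM across WT-1 and 72.2, 78.6 and 83.0 CPM across WT-2. Only WT-1 replicate 3 overlapped the mutant libraries. Grb10 averaged 155 ± 25.5 CPM in mutant lines and 88.5 ± 15.2 CPM in wild-type lines (SD, n = 2 lines each), giving a log2 fold change of 0.81 ± 0.16 (adjusted p = 0.169). In pairs of lines it was 0.83 ± 0.26 for Mut-1 over WT-1 and 0.81 ± 0.26 for Mut-2 over WT-2 (adjusted p = 0.288 and 0.157). Without WT-1 replicate 3 the first passed (1.27, adjusted p = 0.0115). As for Igf2r, the WT-1 arm is then the nearly alike replicates 1 and 2, and 208 of all genes were called, against 34 with replicate 3.

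Dcn encodes decorin, a collagen-binding proteoglycan typical of fibroblasts, and is imprinted in the mouse placenta. It had 56.2, 21.8 and 16.2 CPM across Mut-1 and 34.3, 39.6 and 31.3 CPM across Mut-2, against 16.6, 18.5 and 35.9 CPM across WT-1 and 14.8, 14.9 and 32.2 CPM across WT-2. Its highest value was in Mut-1 replicate 1, the library with the highest fibroblast share, and the genotypes overlap. The log2 fold change of Dcn was 0.59 ± 0.14 (adjusted p = 0.209), and 0.30 without Mut-1 replicate 1.

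All 29 fibroblast markers in the table also had a genotype log2 fold change above 0 (median 0.57), and their sum was 6184 to 13499 CPM in mutant and 5531 to 7823 CPM in wild-type libraries. With the fibroblast share as a covariate in limma, the log2 fold change was 0.099 for Dcn, 0.27 for Igf2r, 0.37 for Igf2 and 0.65 for Grb10. Without the 3 libraries of highest share it was 0.18, 0.20, 0.53 and 0.62 for Dcn, Igf2r, Igf2 and Grb10 in that order. Dlk1, Ndn, Meg3, Usp29 and Cd81, described with their domains, also lay nearer 0 with the covariate, at 0.094, 0.13, 0.11, -0.25 and 0.088. Rtl1 and Mirg of the Dlk1-Meg3 domain did not, at 0.59 and 0.36, against 0.50 and 0.34 in the reported test. Without the 3 libraries of highest share, with Mut-2 replicate 3 alone for its line, Rtl1 and Mirg were at 0.72 and 0.58. That library held the highest counts of both genes. Not every gene is listed here. The 3 highest shares are all mutant, so the covariate and the genotype overlap. The part of each in a value nearer 0 was not tested. None of the 11 markers of primitive endoderm passed by genotype; 10 of 11 lay above 0 (median 0.50), and their sum overlapped between the genotypes, at 500.5 to 912 CPM in mutant and 518 to 645 CPM in wild-type libraries; the part of these markers in the values above was not tested. The 10 other genes within 2 Mb of Dcn had a median of 0.39 in Mut-1 over WT-1, where Dcn had 0.41 ± 0.44. This value of Dcn turned to -0.32 without Mut-1 replicate 1, -0.31 without the 3 libraries of highest share and -0.071 with the covariate.

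**Figure D3:**
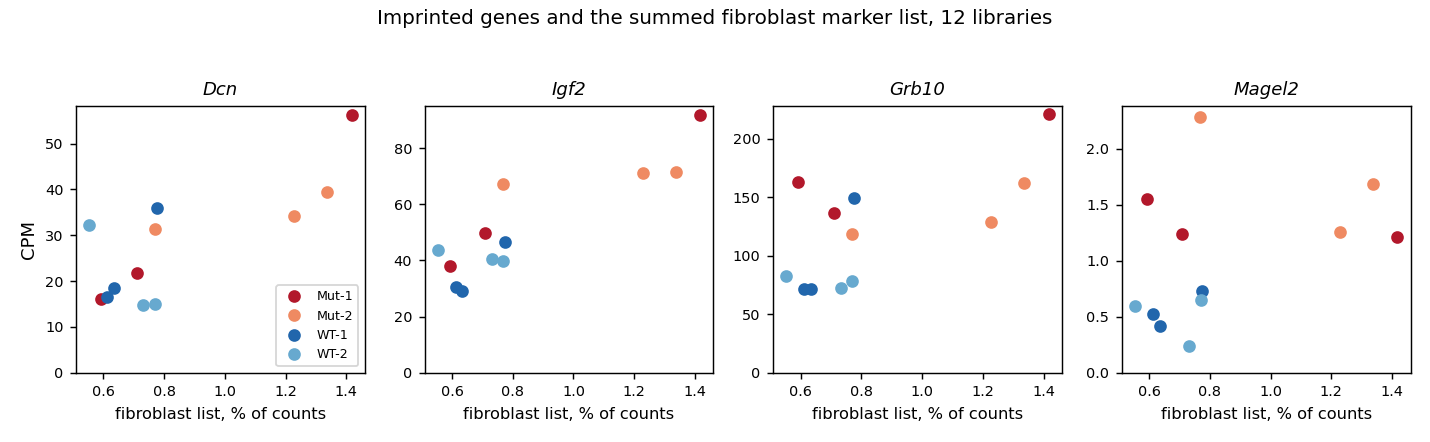
CPM (y axis, from 0) of Dcn, Igf2, Grb10 and Magel2 against the share of counts on the fibroblast marker list (x axis, percent) in the 12 libraries, coloured by line. The 3 libraries with a share of 1.23% to 1.42% are mutant, and they hold the highest values of Igf2 and 2 of the 3 highest of Dcn, while the highest of Magel2 lies outside them.

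In the Dlk1-Meg3 domain on chromosome 12 all 5 genes had a genotype log2 fold change above 0, and none passed the test. The same 5 were also above 0 in WT-2 over WT-1 and 4 of the 5 in Mut-2 over Mut-1, between lines of 1 genotype. Meg3 (also called Gtl2), a maternally expressed non-coding RNA whose silencing is known from mouse induced pluripotent lines of poor developmental potential, had 252, 168 and 157 CPM across Mut-1 and 195, 179.7 and 179 CPM across Mut-2, against 133, 135 and 163 CPM across WT-1 and 162, 164 and 159.6 CPM across WT-2. It was well expressed in every library, and only WT-1 replicates 1 and 2 lay clearly under the others. The log2 fold change was 0.30 ± 0.11 (adjusted p = 0.309), and 0.19 without Mut-1 replicate 1. Rian, the maternally expressed host of small nucleolar RNAs, had 276, 260.4 and 202 CPM across Mut-1 and 257, 294 and 348 CPM across Mut-2, against 243, 239 and 212 CPM across WT-1 and 219.8, 272 and 244 CPM across WT-2, with a log2 fold change of 0.18 ± 0.12 (adjusted p = 0.579). The lowest library values were 133 CPM for Meg3 and 202 CPM for Rian.

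Mirg, the host of a microRNA cluster in the same domain, ranged over 13.9 to 26.7 CPM in mutant and 10.4 to 18.2 CPM in wild-type libraries (log2 fold change 0.34 ± 0.16, adjusted p = 0.401). The value of Mirg was 0.20 without Mut-2 replicate 3 and 0.58 without the 3 libraries of highest fibroblast share. Of the paternally expressed genes, Dlk1, a Notch-related growth regulator, ranged over 3.66 to 9.39 CPM in mutant and 3.08 to 6.64 CPM in wild-type libraries (0.56 ± 0.24, adjusted p = 0.386). It was 0.34 without the 3 libraries of highest fibroblast share and 0.094 with that share as a covariate. In Mut-1 over WT-1 Dlk1 had 0.43 ± 0.36, which turned to -0.071 without Mut-1 replicate 1. Rtl1, a retrotransposon-derived placental gene with microRNAs antisense to it, ranged over 2.12 to 3.95 CPM in mutant and 1.45 to 2.45 CPM in wild-type libraries (0.50 ± 0.24, adjusted p = 0.417). The median over 35 other genes within 2 Mb was -0.059. Dio3, the thyroid hormone deiodinase gene at the far end of the domain and one of 45 further imprinted genes listed for comparison, had 14.6, 14.5 and 24.1 CPM across Mut-1 and 21.5, 21.4 and 24.5 CPM across Mut-2, against 20.1, 20.1 and 17.5 CPM across WT-1 and 3.92, 7.73 and 7.54 CPM across WT-2. WT-2 was below each other line without overlap, and Dio3 passed the 4-line test (adjusted p = 0.0152) and the rule for Mut-2 over WT-2 (log2 fold change 1.81, adjusted p = 0.0109). Both calls of Dio3 ended without Mut-2 replicate 2 (adjusted p = 0.0501 and 0.0621) and without the 3 libraries of highest fibroblast share (0.109 and 0.160).

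The Kcnq1ot1 domain holds 7 of the genes, and none passed a test. Cd81, a tetraspanin gene imprinted in the placenta, was the most abundant, with 384, 279 and 321 CPM across Mut-1 and 388, 339 and 329 CPM across Mut-2, against 289, 293 and 294 CPM across WT-1 and 350.0, 272 and 249 CPM across WT-2 (log2 fold change 0.22 ± 0.10, adjusted p = 0.413). Phlda2, which limits placental growth, had 18.0, 19.5 and 25.5 CPM across Mut-1 and 11.2, 11.5 and 23.8 CPM across Mut-2, against 10.7, 10.7 and 18.8 CPM across WT-1 and 17.1, 16.8 and 24.0 CPM across WT-2. Replicates 1 and 2 of WT-1 and of Mut-2 were the low libraries, and the genotypes overlap (log2 fold change 0.14 ± 0.22). Tssc4, which encodes a factor in assembly of the U5 spliceosomal particle, had 32.9, 30.4 and 42.3 CPM across Mut-1 and 26.7, 32.1 and 40.5 CPM across Mut-2, against 34.9, 33.0 and 38.2 CPM across WT-1 and 22.8, 30.5 and 33.1 CPM across WT-2, a log2 fold change of 0.074 ± 0.14. Ascl2, a transcription factor of placental progenitors, had 8.05, 5.45 and 5.90 CPM across Mut-1 and 10.6, 2.57 and 5.47 CPM across Mut-2, against 9.66, 10.8 and 6.22 CPM across WT-1 and 27.3, 5.17 and 4.63 CPM across WT-2. Its lower mean in the mutant lines (log2 fold change -0.74 ± 0.21, adjusted p = 0.244) rested on WT-2 replicate 1, since without that library the value was -0.11. Cdkn1c, an inhibitor of cyclin-dependent kinases, the transporter gene Slc22a18 and the non-coding RNA Kcnq1ot1 itself had log2 fold changes of 0.015 ± 0.28, 0.051 ± 0.24 and -0.10 ± 0.23.

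Nnat showed the widest spread between lines among the 40 genes, with a ratio of 3.62 between the highest and the lowest line total. Nnat, a paternally expressed gene for a small membrane protein of the endoplasmic reticulum, lies within an intron of Blcap and had 3.63, 6.35 and 4.97 CPM across Mut-1 and 6.58, 12 and 17.4 CPM across Mut-2, against 7.43, 8.11 and 14.2 CPM across WT-1 and 12.1, 14.5 and 27.2 CPM across WT-2. The 3 Mut-1 libraries were the lowest of the 12, and the other lines overlap. Its log2 fold change was 1.27 ± 0.40 for Mut-2 over Mut-1 (adjusted p = 0.482) and -0.995 ± 0.40 for Mut-1 over WT-1 (adjusted p = 0.414). The 4-line test gave an adjusted p of 0.137, and 0.0164 with the replicate number as a block. Replicate 3 was the highest library for Nnat in each of the other lines. Blcap, a regulator of apoptosis expressed from the maternal copy in brain, ranged over 38.3 to 51.8 CPM in mutant and 36.1 to 48.1 CPM in wild-type libraries (log2 fold change 0.20 ± 0.14).

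Impact, a translation regulator and the second most abundant of the genes per kilobase, had 122, 139.9 and 157 CPM across Mut-1 and 118, 153 and 187 CPM across Mut-2, against 84.9, 80.6 and 183 CPM across WT-1 and 113, 145 and 199.5 CPM across WT-2. It varied within lines more than between them, and its log2 fold change was 0.10 ± 0.14 (adjusted p = 0.792). Mcts2, an intronless copy of the translation factor gene Mcts1 with which it may share reads, had 20.5, 25.7 and 28.6 CPM across Mut-1 and 17.0, 18.9 and 22.3 CPM across Mut-2, against 22.1, 20.3 and 21.7 CPM across WT-1 and 20.5, 26.5 and 25.1 CPM across WT-2 (log2 fold change -0.052 ± 0.16). Plagl1, a zinc-finger transcription factor of the imprinted gene network, ranged over 71.4 to 97.2 CPM in mutant and 61.7 to 121 CPM in wild-type libraries, and was 0.53 ± 0.17 on the log2 scale in WT-2 over WT-1 (adjusted p = 0.529). Peg10, a retrotransposon-derived gene needed for the placenta, ranged over 66.0 to 92.5 CPM in mutant and 43.0 to 94.0 CPM in wild-type libraries, and was -0.54 ± 0.19 in WT-2 over WT-1 (adjusted p = 0.553). None of the 40 genes tested passed in WT-2 over WT-1 or in Mut-2 over Mut-1, where 0.0181% and 0.121% of all genes did.

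The genes not yet given had genotype log2 fold changes between -0.70 (Rasgrf1) and 0.53 (Nap1l5, a nucleosome assembly protein gene). Mest, which encodes an enzyme of the hydrolase family, was at -0.29 ± 0.20, Sgce, for a sarcoglycan, at 0.21 ± 0.16, and Ppp1r9a, for an actin-binding scaffold, at -0.21 ± 0.18. Inpp5f, for an inositol phosphatase, was at 0.30 ± 0.15, Gnas, for the stimulatory G protein subunit, at 0.0072 ± 0.25, Zrsr1, for a splicing factor, at -0.071 ± 0.15, Commd1, which surrounds Zrsr1, at -0.16 ± 0.19, and Asb4, for a substrate receptor of a ubiquitin ligase, at -0.14 ± 0.37. Exons of Gnas overlap other genes, such as the antisense Nespas, in 22.0% of their bases.

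The imprinted genes varied within lines as well as between them. The largest ratio between libraries of 1 line was 2 or more for 20 of 40, where 35.8% of all genes reached it, and the ratio between the highest and the lowest line total was 1.5 or more for 16 of 40, where 31.8% of all genes did. The median ratio between line totals was 1.46, against 1.33 over all genes. Ratios are not set against the level of the genes, and low genes vary more by counting alone. In the 4-line test 8 of 40 had an unadjusted p under 0.05, where 14.3% of all genes did.

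**Figure D4:**
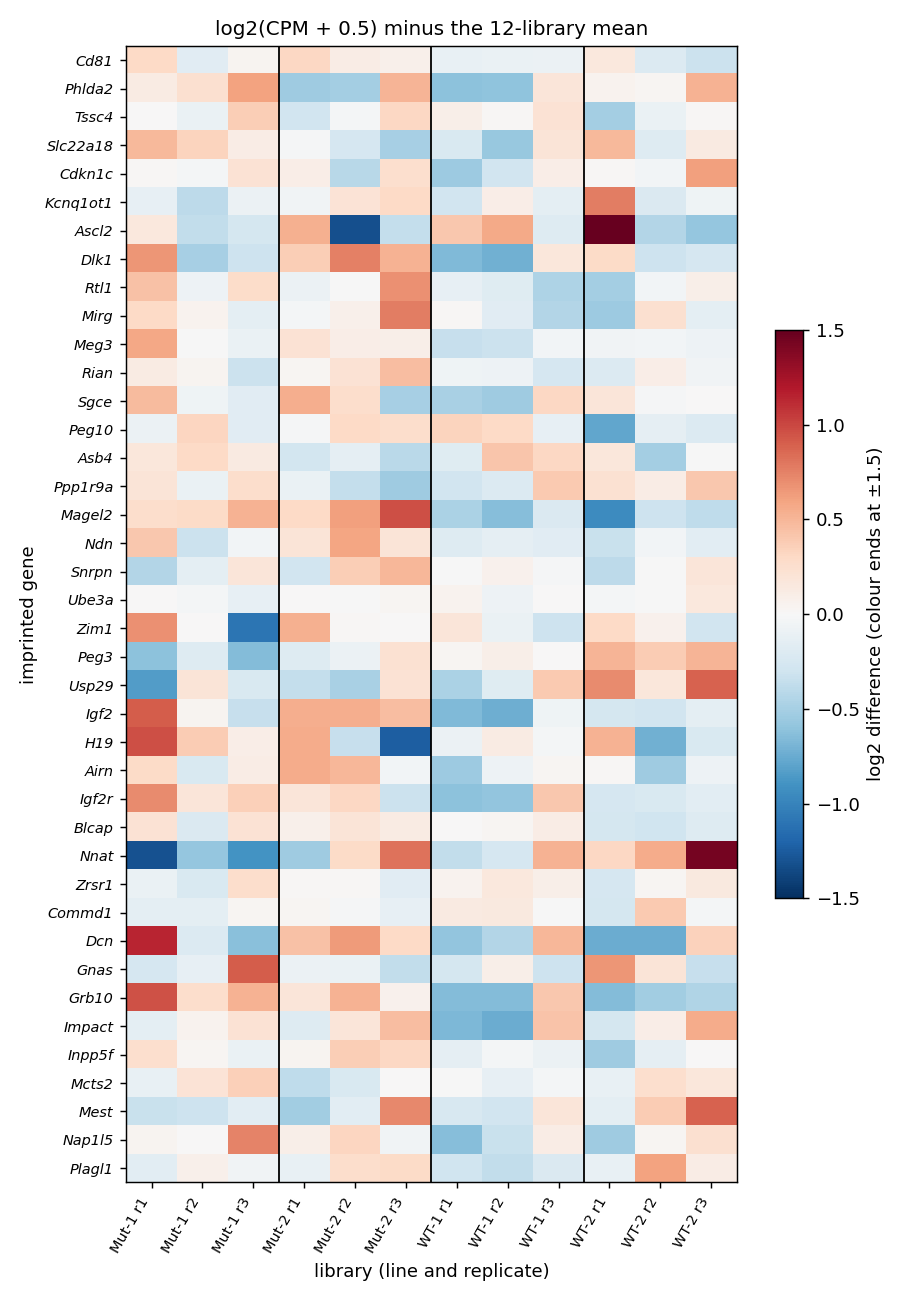
Log2(CPM + 0.5) of 40 imprinted genes (rows, by domain) in the 12 libraries (columns), minus the 12-library mean of the gene, with colours ending at ±1.5. Peg3 is blue in Mut-1 and red in WT-2, Magel2 is red in each mutant library, and single libraries stand out, such as WT-2 replicate 1 for Ascl2 and WT-2 replicate 3 for Nnat.

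The machinery that writes and protects imprints was set beside these genes as a list of 24, which includes the DNA methyltransferases, their cofactors and the ZFP57-TRIM28 complex. None of the 23 tested passed by genotype, and 5 of 23 lay above 0, where 49.8% of all genes did (median -0.20, against -0.0016 over all genes). At an unadjusted p under 0.05 there were 7, all lower in the mutant lines: Khdc3, Dnmt1, Dnmt3a, Dnmt3b, Dnmt3l, Tet1 and Dppa3 (3.88% of all genes were under 0.05 and lower). The pairs of lines differed in this. In Mut-1 over WT-1, 2 of 22 lay above 0 (median -0.22, against 0.024 over all genes). At an unadjusted p under 0.05 were 3, all lower, where 1865 of all 16533 genes were under it in either direction. In Mut-2 over WT-2, 7 of 22 lay above 0 (median -0.16, against -0.0015 over all genes). Of 5 under 0.05, 2 were higher and 3 lower, where 2499 of all 16533 genes were under it. Khdc3, whose human counterpart is needed to set maternal imprints in the oocyte, had 1.09, 2.83 and 1.24 CPM across Mut-1 and 1.49, 1.56 and 1.38 CPM across Mut-2, against 6.61, 7.93 and 1.23 CPM across WT-1 and 3.62, 6.60 and 3.11 CPM across WT-2 (log2 fold change -1.63 ± 0.24, adjusted p = 0.102), and WT-1 replicate 3 lay within the mutant range. Dnmt1, which copies methylation at replication and is named after its values were seen, had 282, 306 and 281 CPM across Mut-1 and 264, 267 and 325 CPM across Mut-2, against 374, 392 and 296 CPM across WT-1 and 361, 371 and 325 CPM across WT-2 (log2 fold change -0.31 ± 0.097, adjusted p = 0.263). In the 4-line test the 4 genes of this list with the smallest p were Khdc3, the demethylase gene Tet2, the methyltransferase gene Dnmt3a and Uhrf1, the partner of Dnmt1, at adjusted p = 0.214, 0.275, 0.343 and 0.349.

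Of the 45 further imprinted genes, 35 entered the 4-line test and 3 passed, where 1.22% of all genes did: Dio3, Rhox5 and Slc38a4. Rhox5, an X-linked homeobox gene, had 0.545, 1.86 and 1.80 CPM across Mut-1 and 0.801, 2.44 and 0.900 CPM across Mut-2, against 5.09, 5.92 and 3.08 CPM across WT-1 and 7.0, 7.73 and 7.34 CPM across WT-2. All 6 mutant libraries lay below the 6 wild-type libraries, where 0.732% of all genes did. Rhox5 passed the 4-line test (adjusted p = 0.0271) and the rule for Mut-2 over WT-2 (log2 fold change -2.41, adjusted p = 0.0348), but not the genotype test (-2.13 ± 0.28, adjusted p = 0.102). Among the alternatives it was called by genotype with no filter, with DESeq2 and in limma-voom with and without the replicate block. It was not called with RLE scaling or the fibroblast covariate. Its genotype log2 fold change ran from -2.41 to -1.78 over the alternatives. The 4-line call of Rhox5 ended without any 1 of 8 libraries (adjusted p up to 0.0741) and with the fibroblast share as a covariate (0.152). Its call for Mut-2 over WT-2 ended without any 1 of 10 libraries (adjusted p up to 0.104), with that covariate (0.219) and without the 3 libraries of highest share (0.143). Slc38a4, an amino acid transporter gene of the placenta, had 164, 158 and 144 CPM across Mut-1 and 129, 99.7 and 65.0 CPM across Mut-2, against 191, 194 and 279 CPM across WT-1 and 117, 84.5 and 116 CPM across WT-2 (adjusted p = 0.0418), and its call ended without any 1 of 9 libraries (adjusted p up to 0.101). Zfp264, a zinc-finger gene of the Peg3 domain, was the fourth by p and did not pass (adjusted p = 0.0796). Of the cell-type markers, 1 passed the same 4-line test (1.22% of all genes), the keratin gene Krt8, 1 of 9 trophoblast markers tested (adjusted p = 0.0104). That call held in 17 of 18 alternatives, among them each with a single library left out. It ended only without the 3 libraries of highest fibroblast share. Krt8 also passed the rule for Mut-2 over Mut-1, where it was lower (0.121% of all genes passed). None of the 12 pluripotency, 29 fibroblast, 10 primitive endoderm, 8 neural or 8 mesoderm markers tested passed.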

How the data were processed

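Expression was measured by RNA-seq in 12 libraries of 4 embryonic stem cell lines. The authors deposited a table of raw, whole-number read counts by gene, without normalization. The build GRCm38 and the tools HTSeq 0.6.0, HISAT2 2.1.0, Bowtie2 2.2.3 and bcl2fastq are named, per the submitters' processing notes. What each did, which annotation was counted and whether strand was used is not given in the sources used here, so reads of overlapping or antisense genes cannot be told apart.

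As the 3 libraries of a line are called technical replicates in the design text, counts were summed per line for the genotype test (2 mutant against 2 wild-type lines; edgeR 4.0.16 quasi-likelihood in R 4.3.3, TMM, filterByExpr, Benjamini-Hochberg at 0.05). Pairs of lines and the test for any difference among 4 lines came from 1 edgeR fit of the 12 libraries, so their p-values measure only the spread between libraries of a line, which may be technical. CPM values are TMM-normalized, SE is from the fit, and SD is over line totals. Library totals ran from 14766477 to 17891894 counts, and precision falls with the count, as for Magel2. The tests were checked on simulated counts.

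Alternatives were RLE scaling, no filter, DESeq2 1.42.0, limma 3.58.1 (voom on 12 libraries with line as a random effect), a replicate block, the fibroblast share as a covariate, leaving out the 3 libraries of highest share, each library and each line. Without the 3 libraries of highest share, Mut-2 was 1 library, replicate 3. Same-numbered libraries deviated together in each pair of libraries (correlation over 0.1) for Mut-2 with WT-2 (0.114 to 0.695), WT-2 with WT-1 (0.194 to 0.621) and Mut-2 with Mut-1 (0.139 to 0.493), but not for Mut-1 with WT-1 (-0.13 to 0.217). Of the crossed pairs, Mut-1 with WT-2 gave 0.288 to 0.404, and Mut-2 with WT-1 was negative for each replicate number (-0.288 to -0.105). WT-1 replicates 1 and 2 differed by more than sampling noise and both stayed in the line total. Positions and exon lengths are from GENCODE M21 on GRCm38.

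Members and lists were chosen with earlier results of these data known. Values in 12 libraries are given for genes called in a reported fit, without overlap between genotypes, or among the 6 most abundant per kilobase. A call in an alternative alone, such as that of H19 with no filter, did not count for this. Further genes were singled out after their values were seen. For other lists, up to 4 genes of smallest p in the 4-line test are named.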

Additional observations from a re-analysis of the deposited data

Results flagged for a closer look

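In each of 40 imprinted genes the 6 libraries of a genotype were searched for 1 library that stands apart from the other 5, by the gap to its nearest neighbour as a share of the whole range (over 0.625). Of 80 such groups 10 held one. Chance alone marks about 1 in 20 groups, and the 6 libraries are 3 each from 2 lines, which the test does not take into account. The share of all genes marked by the same rule is not given here, so the 10 cannot be read as an excess for imprinted genes. Among mutant libraries, Mest was highest in Mut-2 replicate 3 at 44.9 CPM (next 24.2), Gnas was highest in Mut-1 replicate 3 at 10.8 CPM (next 5.15), and Blcap was lowest in Mut-1 replicate 2 at 38.3 CPM (next 46.8). Among wild-type libraries, WT-1 replicate 3 held the highest Grb10, at 149 CPM (next 83.0), and the highest Igf2r, at 216 CPM (next 146). WT-2 replicate 1 held the highest Ascl2, at 27.3 CPM (next 10.8), the highest Kcnq1ot1, at 10.2 CPM (next 6.21), the lowest Inpp5f, at 11.4 CPM (next 15.2), and the lowest Zrsr1, at 12.6 CPM (next 15.4). WT-2 replicate 3 held the highest Nnat, at 27.2 CPM (next 14.5).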

How the results depend on the processing

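The count of imprinted genes called by genotype, 0 as reported, was 2 with no filter (Grb10 and Igf2), 3 with DESeq2 (Dcn, Grb10 and Igf2), 2 with limma-voom (Grb10 and Magel2), 1 with limma-voom and the replicate block (Magel2), 1 without line Mut-1 (Igf2) and 1 without line Mut-2 (Grb10). With each library left out in turn it ran from 0 to 1, the 1 being Igf2 without Mut-1 replicate 3. It stayed at 0 with RLE scaling, with the fibroblast share as a covariate, without the 3 libraries of highest share and without line WT-1 or WT-2. Over all genes the same test called 0 as reported, 77 with no filter, 360 with DESeq2, 233 with limma-voom, 124 with its block and 34 with its covariate, 158, 92 and 53 without line Mut-1, Mut-2 or WT-1, and up to 96 without 1 library. In the 4-line test the 1 imprinted gene called became 10 with no filter, 5 with DESeq2, 3 with the replicate block (Magel2, Nnat and Peg3) and 0 without the 3 libraries of highest fibroblast share, and 0 to 3 with each library left out (3 without WT-1 replicate 3, namely Grb10, Igf2r and Peg3). All-gene counts there were 1604, 920, 308 and 50, against 202, and 62 to 422 with a library left out. For Mut-2 over WT-2 the count of 0 became 1 with no filter, with DESeq2 and with the replicate block, each time Magel2 (350, 209 and 139 of all genes, against 76). For Mut-1 over WT-1 it ran from 0 to 2 with a library left out (Grb10 and Igf2r without WT-1 replicate 3, where 208 of all genes were called, against 34). For Mut-2 over Mut-1 it became 1 with no filter (Nnat; 99 of all genes, against 20). For WT-2 over WT-1 it stayed at 0 in each alternative. The block changed no other call among the imprinted genes. The count with no overlap between genotypes, 1 as reported, ran from 1 to 4 with a library left out. A lack of overlap is reached more easily with fewer libraries. The matching shares of all genes are not given here, so no excess of imprinted genes can be read from these counts.

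Log2 fold changes that changed sign by genotype included those of H19 (-0.14 with the fibroblast covariate, -0.27 without the 3 libraries of highest share and -0.094 without line Mut-1), Phlda2 (-0.078 and -0.11 without line WT-1 or Mut-1, and -0.023 to 0.27 with a library left out), Impact (-0.054 without line WT-1), Mcts2 (0.16 with the covariate, 0.13 without the 3 libraries, 0.026 and 0.11 without line WT-2 or Mut-2, and -0.12 to 0.041 with a library left out) and Tssc4 (-0.077 without line WT-2, and -0.0031 to 0.15 with a library left out). The list is not complete, as other genes with small values, such as Gnas, are not given. Dcn in Mut-1 over WT-1 was -0.071 with the covariate, -0.31 without the 3 libraries, and -0.32 to 0.84 with a library left out. The cause was not tested in any of these. Magel2 kept a positive log2 fold change by genotype in all 23 alternatives (1.32 to 1.77), as did Igf2 (0.37 to 0.88) and Grb10 (0.62 to 1.05), and Peg3 a negative one (-0.78 to -0.29). With 2 lines per genotype, differences between lines and effects of the genotype cannot be told apart beyond that n, and counts of 4 to 33 per library limit Magel2.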
